A study of Homo sapiens with 6 samples.

Results

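The genes described here encode the glycolytic pathway and the transcriptional response to low oxygen. The list held 41 genes named by symbol, of which 38 had a probe set annotated with that symbol alone, out of 19775 such genes on the array, and SLC16A1, SLC16A3 and CA9 were not analysed here. A gene was represented by the brightest of these probe sets, by mean over 6 arrays, and these 38 are called measured below. The cells were HCT116, an established human colon carcinoma line, grown with fetal calf serum. One group was transfected with control oligos and the other with miR-224 precursor molecules, each at 50 nM, and cells were harvested for total RNA at 24 h. Each group had 3 arrays. The series text speaks of independent experiments with a control and a miR-224 sample in each, and equal replicate numbers in the titles were read as one experiment. The deposited expression values were read on a log2 scale, an assumption, since no source names the base. Differences are given as miR-224 minus control.

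Glycolysis splits glucose into pyruvate, which either becomes lactate or enters the mitochondria. The bifunctional PFKFB enzymes make and remove fructose 2,6-bisphosphate, the main activator of phosphofructokinase. The pyruvate dehydrogenase kinases (PDK) inactivate pyruvate dehydrogenase, which oxidizes pyruvate inside the mitochondria. The hypoxia-inducible factor HIF-1, of which HIF1A encodes the regulated subunit, is hydroxylated and degraded when oxygen is present, and at low oxygen it binds a short core motif in the promoters and enhancers of many of these genes.

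The oligo given to the cells yields the mature strands of miR-224. Its gene lies within the GABRE gene on chromosome X, and the 5p and 3p strands are at chrX:151958628-151958652 and chrX:151958584-151958606 (GRCh38.p14, minus strand, RefSeq). The mature sequences are shown because the seed, bases 2 to 8 in capitals, is the part that pairs with messenger RNAs. Which strand is active after transfection was not measured.
hsa-miR-224-5p: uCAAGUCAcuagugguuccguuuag
hsa-miR-224-3p: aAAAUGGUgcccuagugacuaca

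Promoters are shown for PFKFB3, PDK1 and HK2, the measured members with an unadjusted p under 0.05 that have an entry in the RefSeq promoter table, and the promoter of LDHA is shown as one without such a difference. Each run is the 250 bases before an annotated gene start (GRCh38.p14), and where a gene has several starts, the window with the most matches was taken. Capitals mark the core motifs of HIF binding, ACGTG and GCGTG, searched on both strands. In CACGTG the motif is found on both strands, so that 2 matches overlap. The windows are chr10:6202682-6202931 for PFKFB3, chr2:172555840-172556089 for PDK1, chr2:74834920-74835169 for HK2 and chr11:18394313-18394562 for LDHA, all on the plus strand.
PFKFB3: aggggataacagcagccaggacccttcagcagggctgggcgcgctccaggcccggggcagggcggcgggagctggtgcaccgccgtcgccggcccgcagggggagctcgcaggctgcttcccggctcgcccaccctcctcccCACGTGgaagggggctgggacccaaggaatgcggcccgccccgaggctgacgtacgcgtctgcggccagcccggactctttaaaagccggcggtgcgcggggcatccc
PDK1: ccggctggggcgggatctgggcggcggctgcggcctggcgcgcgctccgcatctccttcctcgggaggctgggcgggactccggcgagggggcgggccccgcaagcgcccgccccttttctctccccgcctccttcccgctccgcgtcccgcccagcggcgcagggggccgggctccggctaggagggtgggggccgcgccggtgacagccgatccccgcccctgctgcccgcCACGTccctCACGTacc
HK2: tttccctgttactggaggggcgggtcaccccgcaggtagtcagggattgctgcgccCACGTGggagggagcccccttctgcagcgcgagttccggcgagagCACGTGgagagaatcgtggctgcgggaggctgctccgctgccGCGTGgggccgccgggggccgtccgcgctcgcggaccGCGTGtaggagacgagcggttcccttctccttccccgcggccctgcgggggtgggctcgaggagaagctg
LDHA: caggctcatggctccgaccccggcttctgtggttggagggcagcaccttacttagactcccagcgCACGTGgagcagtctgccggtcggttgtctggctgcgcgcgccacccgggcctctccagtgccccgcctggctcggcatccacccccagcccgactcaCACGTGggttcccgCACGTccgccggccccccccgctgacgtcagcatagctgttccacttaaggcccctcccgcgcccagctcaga

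Of the core motifs, ACGTG was more frequent before the starts of these genes than over all genes, by gene and by window. The promoter table held 32 of the 38 measured members with 58 windows. PFKFB2, SLC2A3, VEGFA, NDRG1, BNIP3L and ZNF395 had no entry in it, so their promoters were not searched. ACGTG stood before at least 1 start in 20 of the 32 genes (62.5%), against 21.7% of all 27305 genes in the table, and GCGTG in 18 of them (56.2%), against 36.2%. By window the shares were 39.7% against 18.5% for ACGTG and 34.5% against 32.2% for GCGTG, which was thus near the background. The shares by gene also depend on how many windows a gene has, with 58 for these 32 genes and 35116 for all 27305. A match describes the letters and does not show a bound site.

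The identity of the cells and the state of the RNA bear on all values below. Of 10 colon epithelial markers fixed for these cells, 7 lay at or above the median level of all genes. EPCAM lay between 10.1 and 10.8 on all arrays and KRT18 between 12.1 and 12.5. The intestinal markers CDH17, LGALS4 and VIL1 lay under the median level and did not exceed 2.60, 2.90 and 4.33. Of 10 measured markers of immune, stromal and endothelial cells 9 lay under the median level of all genes (4.75), COL1A1 being the exception, and their summed level was alike in control (7.39 to 7.52 as log2) and miR-224 arrays (7.38 to 7.42). Experiment 1 stood apart in signal from the 5′ part of transcripts. The control probe set for the 5′ end of GAPDH, itself one of the glycolytic genes, read 3.80 and 4.39 on the control and miR-224 arrays of experiment 1 and 13.0 on average in experiments 2 and 3, while the one for the 3′ end read 12.8 and 13.0 on average. Both groups held an array of experiment 1, and the part of this difference in the results was not tested.

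Across the whole set most members differed little between miR-224 and control cells, and 3 stood lower by more than 0.3: PFKFB3, ZNF395 and PDK1. Of the 38 members, 18 (47.4%) had a lower mean in miR-224 cells, against 46.8% of all genes, and 20 had a higher one, and the median difference was 0.01, as it was over all genes (0.01). A difference under 0.2 in size was found for 31 members (81.6%), against 79.4% of all genes, and one of at least 0.3 for 3 members, against 8.09% of all genes. No member passed limma's test with experiment as a block (adjusted p under 0.05), where 0% of all genes passed, and the smallest adjusted p of any member was 0.143. At an unadjusted p under 0.05 there were 4 members (10.5%), 3 lower and 1 higher, against 11.0% of all genes (5.52% lower and 5.45% higher), so that the number of such members was near the background.

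The same test with an intensity trend and robust variances called PFKFB3 and ZNF395, both lower. It called 56 genes (0.283% of all), of which 41 were lower. Without experiment 1, which leaves 1 residual degree of freedom, the blocked test called PFKFB3, ZNF395 and PDK1, all lower. It called 174 of 19775 genes, of which 147 were lower. Further, 7 members (18.4%) were lower in all 3 experiments, against 14.4% of all genes, and 6 (15.8%) were higher in all 3, against 18.3%. By the probe set used, the lower ones were PFKFB3, ZNF395, PDK3, BNIP3L, ENO2, ANKRD37 and PKM. The higher ones were HK2, PFKL, PDK2, SLC2A1, ENO1 and EGLN3.

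**Figure D1:**
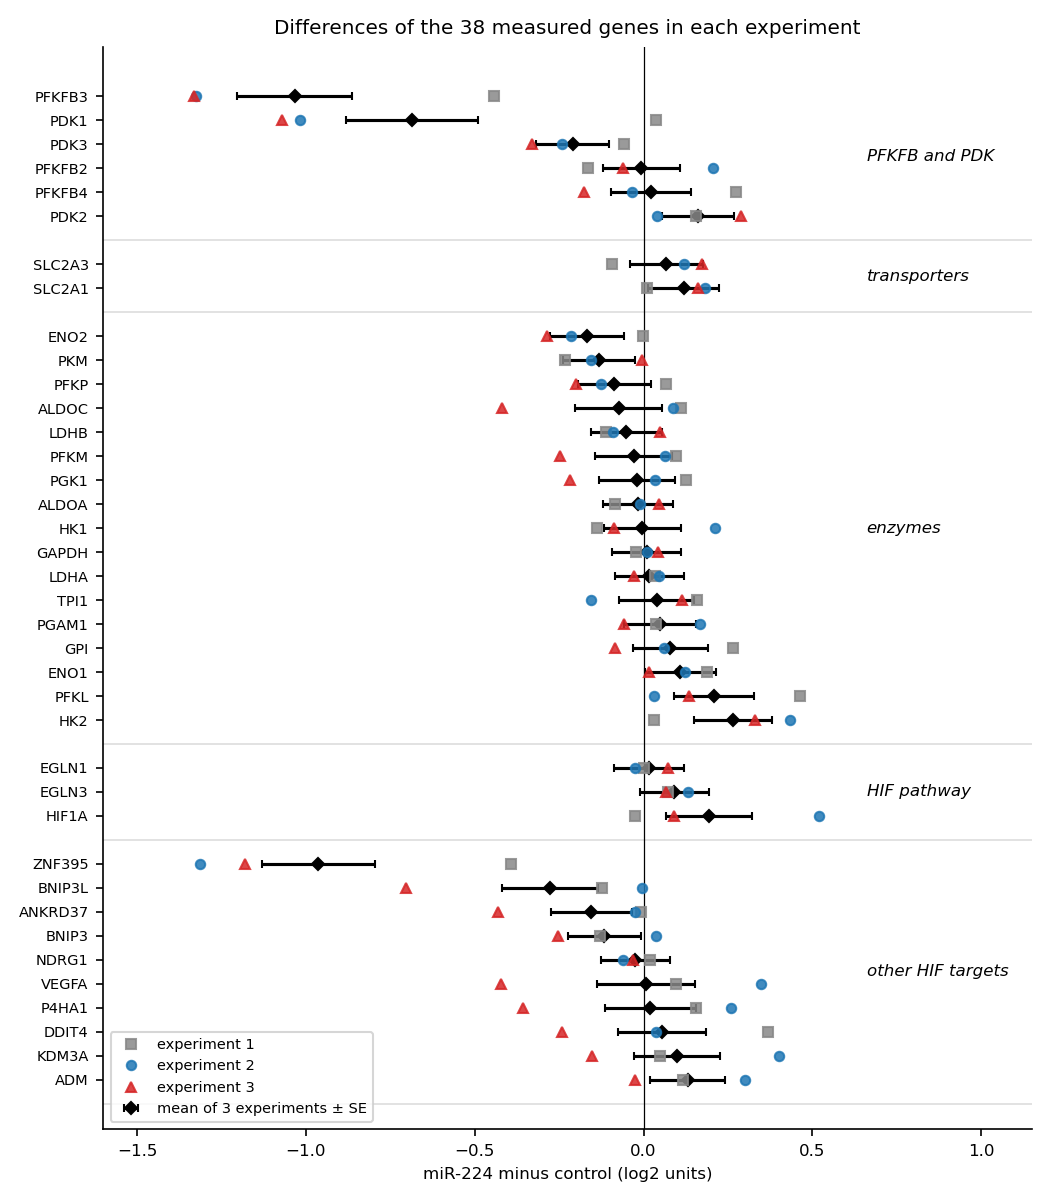
Difference between miR-224 and control cells (log2 units, horizontal axis) for each of the 38 measured genes, grouped by role. Squares, circles and triangles are experiments 1, 2 and 3, and diamonds with bars are the mean over the 3 experiments ± SE of the blocked limma fit. PFKFB3, PDK1 and ZNF395 lie far to the left in experiments 2 and 3 and nearer to 0 in experiment 1, and the enzymes gather around 0.

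Among the regulators of glycolytic flux, PFKFB3 differed most. PFKFB3 encodes the PFKFB isoenzyme with the highest kinase activity relative to phosphatase, and so favours fructose 2,6-bisphosphate. It read 7.90, 6.62 and 6.74 on the control arrays of experiments 1, 2 and 3, and 7.46, 5.29 and 5.40 on the miR-224 arrays. Each miR-224 array was lower than its paired control, but the groups overlapped because both arrays of experiment 1 were high. The difference was -0.44, -1.32 and -1.33 in the 3 experiments, with a mean of -1.03 ± 0.17 (SE, 95% interval -1.42 to -0.65), that is 0.489 of the control level if the scale is log2. The adjusted p was 0.143 in the blocked limma fit, 0.0182 with trend and robust variances, and 0.9999 without the block, where the SE was 0.66. Without experiment 1 the difference was -1.33 (limma adjusted p = 0.00161), and without experiment 2 or 3 it was -0.89 and -0.88, neither passing. This gene had a single probe set, so no second one bears on it.

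The other PFKFB genes did not share this difference. PFKFB2, the isoenzyme of heart and other tissues, stood at -0.16, 0.20 and -0.06 in experiments 1, 2 and 3, with a 95% interval of the mean difference of -0.26 to 0.25. PFKFB4, a hypoxia-inducible isoenzyme, read 5.95, 6.80 and 6.35 in control and 6.22, 6.76 and 6.18 in miR-224 cells. Its arrays overlapped fully, and the mean difference was 0.02 (95% interval -0.25 to 0.29). The difference in response between PFKFB3 and these paralogues was not tested.

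PDK1, which phosphorylates and inactivates pyruvate dehydrogenase, was lower in 2 of 3 experiments. Its control arrays read 5.72, 5.57 and 5.47, and its miR-224 arrays 5.76, 4.56 and 4.40. The miR-224 arrays of experiments 2 and 3 lay below every control array, whereas that of experiment 1 lay above all of them. The differences were 0.04, -1.02 and -1.07, with a mean of -0.68 ± 0.20 (SE, limma adjusted p = 0.267). Without experiment 1 the difference was -1.05 (limma adjusted p = 0.00597). Its second probe set, just under the median level of all genes, stood at 0.14, -0.27 and -0.01, and the mean of its 3 probe sets moved the difference to -0.21. The lower level of PDK1 therefore rests on the brightest probe set and on experiments 2 and 3.

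The remaining pyruvate dehydrogenase kinases did not pass any fit. PDK3 was lower in each experiment by unequal amounts, at -0.06, -0.24 and -0.33, with a mean of -0.21 ± 0.11 (limma adjusted p = 0.525). With the mean of its 5 probe sets the difference was 0.005. PDK2, a widely expressed isoenzyme, was higher in each, at 0.16, 0.04 and 0.29, with a mean of 0.16 ± 0.11 (limma adjusted p = 0.640). Its other probe set, at a like signal and singled out after its values were seen, was higher by 0.68, 0.39 and 0.45, with a mean of 0.51 ± 0.11 in a fit over all probe sets (unadjusted p = 0.00158). In that fit 0 of all single-gene probe sets passed the adjusted threshold.

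**Figure D2:**
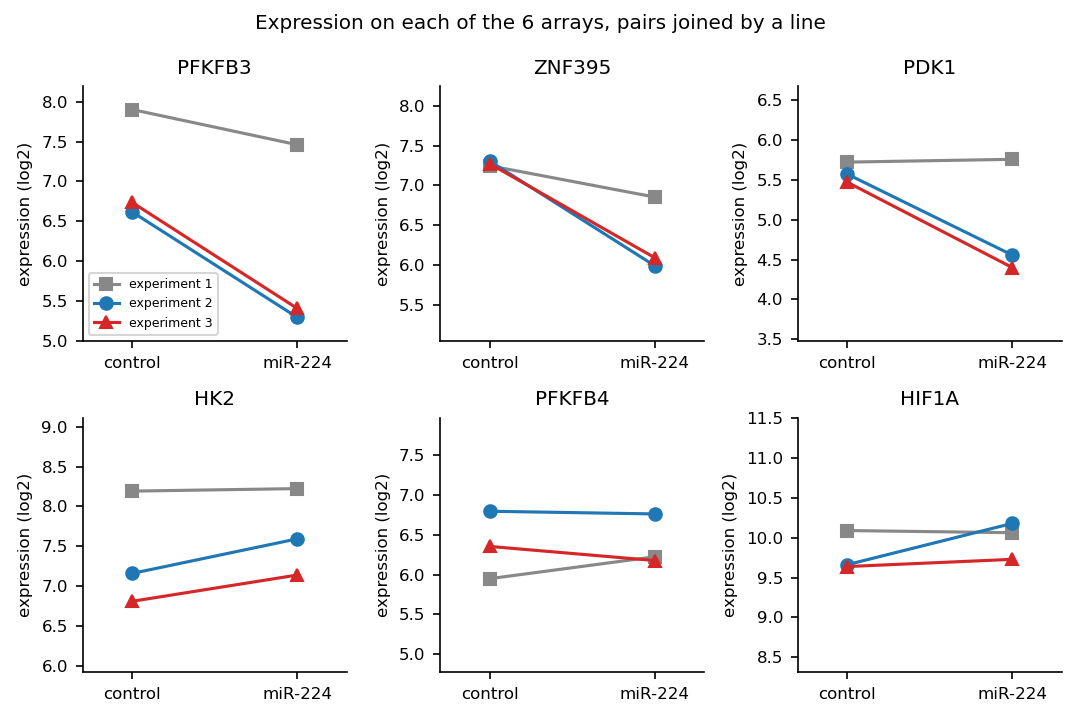
Expression (log2, vertical axis) of 6 genes on each of the 6 arrays, control on the left and miR-224 on the right of each panel, with a line joining the arrays of one experiment and the same span on each axis. The lines of PFKFB3 and ZNF395 slope down in all 3 experiments and that of PDK1 in experiments 2 and 3, whereas HK2 is slightly higher in experiments 2 and 3 and PFKFB4 and HIF1A show no shared direction.

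The enzymes that carry glucose to lactate stayed close to control. Over the 17 enzyme genes the differences ran from -0.17 (ENO2) to 0.27 (HK2), with a median of -0.004, and 15 of them were under 0.2 in size. GAPDH, the dehydrogenase of the middle of the pathway, read 12.79, 13.07 and 13.09 in control and 12.76, 13.08 and 13.14 in miR-224 cells. LDHA, which turns pyruvate into lactate, read 12.26, 12.19 and 12.12 in control and 12.30, 12.23 and 12.10 in miR-224 cells. For both genes the groups overlapped on all arrays, with 95% intervals of the difference of -0.22 to 0.24 for GAPDH and -0.21 to 0.25 for LDHA. PGK1, PGAM1, TPI1, ALDOA, LDHB and HK1 had differences between -0.05 and 0.05. The half-widths of the intervals over the 17 genes were 0.230 to 0.291, the size of difference that this fit could not resolve for single enzymes. With trend and robust variances the SE was smaller for the brightest of them, 0.0426 for GAPDH and 0.0494 for LDHA, against 0.102 as the smallest SE of any enzyme in the blocked fit without these settings, so that the limit depends on the fit.

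HK2, the inducible hexokinase that takes the first step of the pathway, was the enzyme with the smallest p. It read 8.19, 7.16 and 6.81 in control and 8.22, 7.59 and 7.14 in miR-224 cells. Each miR-224 array was higher than its paired control, by 0.03, 0.43 and 0.33, but the groups overlapped because the level differed between experiments. The mean difference was 0.27 ± 0.12 (SE, 95% interval 0.004 to 0.53, limma adjusted p = 0.449). With the mean of its 3 probe sets, of which the others were dim, the difference was 0.004. PFKL, the liver-type phosphofructokinase, was higher by 0.46, 0.03 and 0.14, with a mean of 0.21 ± 0.12 (limma adjusted p = 0.567), while its other probe set stood at 0.03, -0.45 and 0.29. ENO1 was higher by 0.19, 0.12 and 0.02, and PKM, the pyruvate kinase of proliferating cells, stood at -0.23, -0.16 and -0.005. The second probe set of PKM, also above the median level, stood at 0.53, -0.03 and -0.30, and the mean of both moved its difference from -0.13 to -0.03.

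Of the 4 transporter genes in the list, the 2 for glucose were analysed. SLC2A1, the basal glucose transporter GLUT1 and a HIF target, read 7.97, 7.18 and 8.16 in control and 7.99, 7.36 and 8.32 in miR-224 cells. The pairs followed each other closely across experiments, and the differences of 0.01, 0.18 and 0.16 gave a mean of 0.12 ± 0.10 (limma adjusted p = 0.741). With the mean of its probe sets it was -0.01. SLC2A3, the transporter GLUT3, was the only member under the median level of all genes, at 4.03 to 4.49 on the 6 arrays, and its difference was 0.07 ± 0.11.

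The oxygen-sensing genes themselves did not pass either. HIF1A read 10.09, 9.66 and 9.64 in control and 10.06, 10.18 and 9.73 in miR-224 cells. It was higher in experiment 2 by 0.52 and differed by -0.03 and 0.09 in experiments 1 and 3, so that the mean of 0.19 ± 0.13 (limma adjusted p = 0.634) was 0.03 without experiment 2. EGLN1, the main prolyl hydroxylase that marks HIF for degradation, differed by 0.001, -0.02 and 0.07, with a 95% interval of the mean of -0.21 to 0.25. Its second probe set, also above the median level, was lower in each experiment, at -0.27, -0.23 and -0.04, and the mean of its 4 probe sets turned the difference to -0.11, which did not pass either. EGLN3, a hydroxylase that HIF itself induces, was higher by 0.07, 0.13 and 0.07, with a mean of 0.09 ± 0.10 (limma adjusted p = 0.804). HIF activity is set largely through the stability of its protein, which expression arrays do not measure.

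ZNF395, a zinc finger protein induced by hypoxia, stood out among the HIF targets. Its control arrays read 7.25, 7.30 and 7.27, the tightest spread of the genes described in full (SD 0.03, n = 3), and its miR-224 arrays 6.85, 5.99 and 6.09. Every miR-224 array lay below every control array. ZNF395 was the only 1 of the 38 members whose groups did not overlap, a smaller share than the 6.27% of all genes. The differences of -0.39, -1.31 and -1.18 gave a mean of -0.96 ± 0.17 (SE, 95% interval -1.34 to -0.59), that is 0.513 of control if the scale is log2. The adjusted p was 0.143 in the blocked limma fit, 0.0202 with trend and robust variances, and 0.9999 without the block. Without experiment 1 the limma adjusted p was 0.00215, and without experiment 2 or 3 it was 0.720 and 0.324. Its second probe set was lower as well, at -0.55, -0.70 and -0.08, and its dimmest stood at -0.16, -0.16 and 0.12. With the mean of its 3 probe sets the difference was -0.49 (limma adjusted p = 0.279).

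The other 9 measured HIF targets showed no common direction in their mean differences, and none passed any fit. In experiment 3 their differences by the probe set used ran from -0.03 (ADM and NDRG1) to -0.70 (BNIP3L), beside a median of 0.01 over all genes. The share of all genes lower in experiment 3 was not counted. NDRG1, a stress-responsive gene often used as a hypoxia marker, read 7.72, 8.78 and 9.33 in control and 7.74, 8.72 and 9.30 in miR-224 cells. Its level differed widely between experiments while its pairs differed by 0.02, -0.06 and -0.03, and the 95% interval of the difference was -0.26 to 0.20. VEGFA, the angiogenic growth factor, stood at 0.09, 0.35 and -0.42 in the 3 experiments. In experiment 3 its other probe sets stood at 0.08, -0.06 and 0.19, so the lower value there belongs to the brightest one. P4HA1, a collagen prolyl hydroxylase subunit, stood at 0.16, 0.26 and -0.36. ADM, which encodes the vasodilator adrenomedullin, stood at 0.12, 0.30 and -0.03, and the histone demethylase KDM3A at 0.05, 0.40 and -0.15.

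Several HIF targets were lower mainly in experiment 3. BNIP3L, a mitophagy receptor, read 6.76, 7.55 and 8.26 in control and 6.64, 7.54 and 7.56 in miR-224 cells. Its mean difference of -0.28 ± 0.14 (limma adjusted p = 0.525) came mostly from experiment 3 (-0.70) and was -0.06 without it. The second probe set of BNIP3L, also above the median level, stood at 0.13, -0.04 and -0.27, and the mean of both gave -0.17. The related BNIP3 stood at -0.13, 0.04 and -0.25, and by its second probe set at -0.19, 0.36 and -0.10. ANKRD37, a small HIF-induced ankyrin repeat protein, stood at -0.01, -0.02 and -0.43. DDIT4, an inhibitor of mTORC1 signalling, stood at 0.37, 0.04 and -0.24. The median difference of the 10 measured targets, ZNF395 included, was 0.03, 0.04 and -0.31 in experiments 1, 2 and 3, against 0.02, 0.0008 and 0.01 over all genes. Whether the effect differed between experiments cannot be tested with 1 pair in each.

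The levels of these genes also differed between experiments. The distance of experiment 1 from the mean of experiments 2 and 3 exceeded the difference between miR-224 and control cells for 36 of 38 members (94.7%) and for 72.4% of all genes. In the blocked fit, experiment 1 differed from the mean of experiments 2 and 3 for 22 of 38 members (57.9%, limma adjusted p under 0.05), against 35.6% of all genes. Of all 19775 genes, 1745 (8.82%) passed as lower in experiment 1 and 5293 (26.8%) as higher. Of the 38 members, 15 passed as lower and 7 as higher. Among those lower were DDIT4 (-2.46 ± 0.14 SE), ALDOC, the brain-type aldolase (-1.35), NDRG1 (-1.30), PFKL (-1.06), BNIP3L (-1.03) and P4HA1 (-1.01). Those higher were PFKFB3 (1.67 ± 0.18), HK2 (1.03), EGLN1 (0.82), PDK3 (0.79), PDK1 (0.74), PFKM (0.48) and VEGFA (0.45). For VEGFA this direction belongs to the brightest probe set alone, as its other 3 were lower in experiment 1, at -1.10, -1.37 and -1.76, and the second probe set of PDK1 was lower as well (-1.17). When probe sets were averaged per gene, 25 of 38 members differed in either direction, against 32.2% of all genes. Of the 25, 18 were lower in experiment 1, and the share of all genes lower was not counted for averaged probe sets. Of the 10 measured HIF targets, 7 were lower in experiment 1 and VEGFA was higher by its brightest probe set, whereas NDRG1 and DDIT4 differed between miR-224 and control cells by only -0.03 and 0.05.

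**Figure D3:**
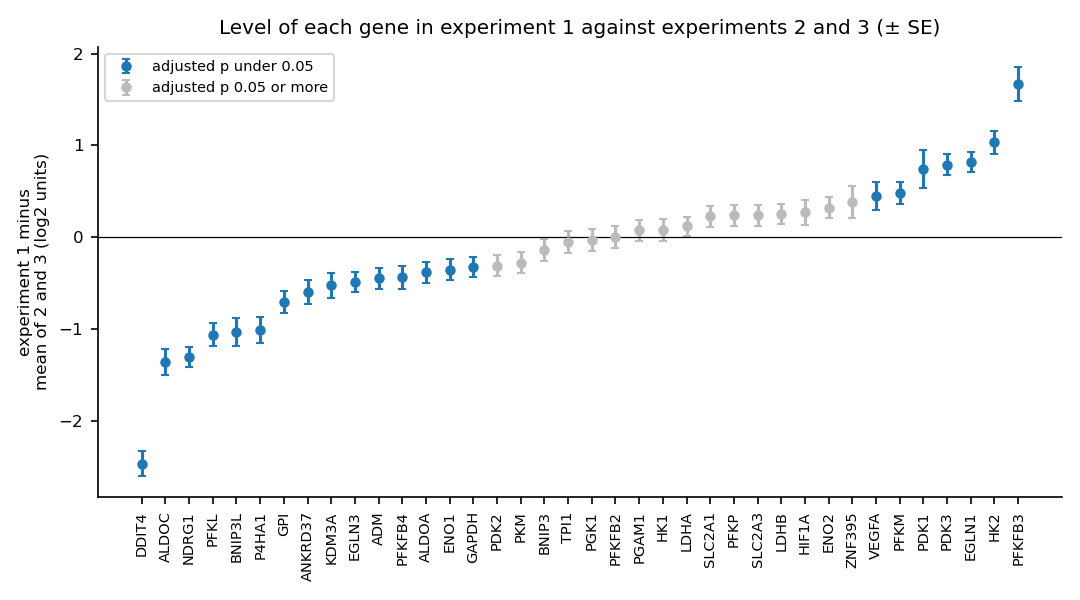
Level in experiment 1 minus the mean of experiments 2 and 3 (log2 units, vertical axis) for each of the 38 genes in order of size, over both groups of arrays, with bars for ± SE of the blocked limma fit. Blue genes passed an adjusted p of 0.05. DDIT4 is lowest at -2.46 and PFKFB3 highest at 1.67.

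Within some of these genes, one probe set lost its signal in experiment 1 while another kept it. Where these probe sets lie along the transcript was not analysed here. ENO1 read 11.6 to 12.1 on all 6 arrays with its brightest probe set, while another read 2.37 and 3.21 in experiment 1 and 12.0 to 12.1 on the other 4 arrays. For PGK1 the brightest probe set read 10.9 to 11.2 throughout, while another read 3.92 and 3.74 in experiment 1 and 10.4 to 10.7 elsewhere. The 2 probe sets of one gene therefore differed between experiments by -0.35 and -9.25 for ENO1 and by -0.02 and -6.75 for PGK1. State of the RNA and state of the cells in experiment 1 cannot be told apart. In experiments 2 and 3 the 5′ control probe set of GAPDH kept its signal. These 2 experiments differed for 5 of 38 members (limma adjusted p under 0.05). This was a larger share than among all genes (1121 of 19775, 5.67%). SLC2A1 (0.97), PDK2 (0.76) and NDRG1 (0.56) were higher in experiment 3, and ANKRD37 (-0.97) and BNIP3 (-0.55) were lower.

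**Figure D4:**
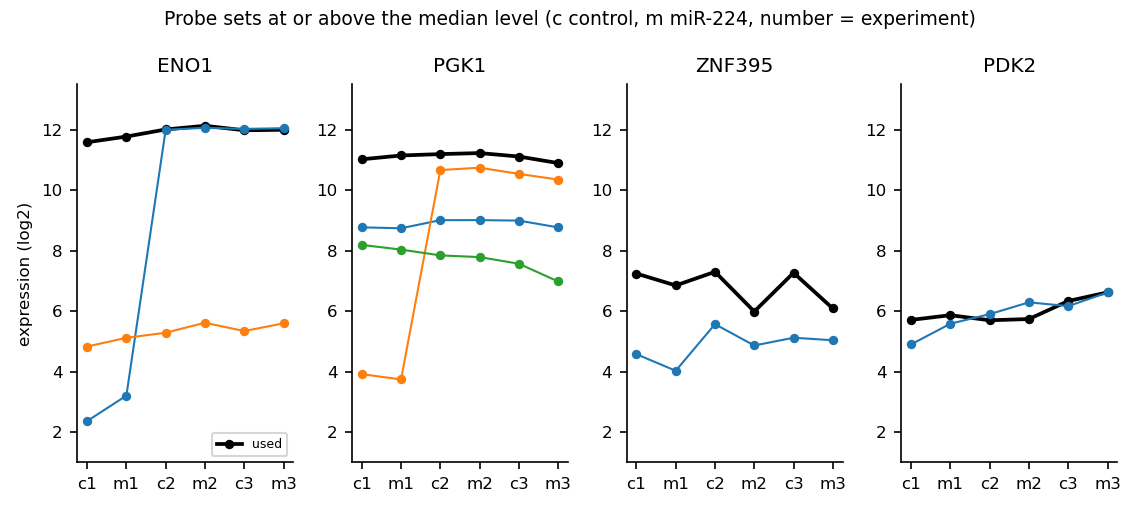
Expression (log2, vertical axis) of the probe sets at or above the median level of all genes for ENO1, PGK1, ZNF395 and PDK2 on each array (c control, m miR-224, with the number of the experiment). Black lines are the probe sets that stand for the gene. One probe set of ENO1 and one of PGK1 are near the floor in experiment 1 only, and both probe sets of ZNF395 are lower in miR-224 cells.

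Of the other genes of the same pathways, 0 passed the blocked limma fit after adjustment. Of 34 measured genes of glycolysis and pyruvate oxidation outside the list, 0 were lower and 2 higher at an unadjusted p under 0.05 (5.88%, against 11.0% of all genes), and of 6 genes of the pentose phosphate pathway 0 were in either direction. The 2 were ENO3, the muscle enolase, at 0.85, 0.48 and 0.11 (mean 0.48), and SLC16A7, a monocarboxylate transporter, at 0.06, 0.35 and 0.45 (mean 0.29). Both lay under the median level of all genes. Averaged over probe sets, the differences were 0.15 for ENO3 and 0.05 for SLC16A7, and without experiment 1 that of ENO3 was 0.30.

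Of 19 genes of the HIF pathway, 1 was lower and 1 higher at that threshold (10.5%, near the 11.0% of all genes). EGLN2, the third prolyl hydroxylase, was higher by 0.20, 0.45 and 0.47, but it read 2.84 to 3.41, far under the median level. HIF1AN, the asparaginyl hydroxylase that blocks HIF's transactivation and chosen here after its values were seen, stood at 0.13, -0.43 and -0.91, with a mean of -0.40 ± 0.17 that was -0.15 without experiment 3, -0.67 without experiment 1 and -0.22 with the mean of its probe sets.

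Of 48 measured further HIF targets, 3 were lower and 3 higher at an unadjusted p under 0.05 (12.5% in all, near the 11.0% of all genes). MAFF, a small MAF transcription factor, read 7.66, 7.03 and 6.71 in control and 7.41, 6.48 and 5.98 in miR-224 cells. It was lower in each experiment, at -0.24, -0.56 and -0.74, with a mean of -0.51 ± 0.12 (SE, limma adjusted p = 0.224). TMEM45A, a transmembrane protein, stood at -0.35, -0.26 and -0.70 and HILPDA, which coats lipid droplets under hypoxia, at -0.19, -0.22 and -0.55. LOXL2, a lysyl oxidase of the extracellular matrix, stood at 0.02, 0.27 and 0.78, PLOD1, a collagen lysyl hydroxylase, at 0.18, 0.16 and 0.46, and the dim BHLHE41, a transcriptional repressor, at 0.31, 0.25 and 0.15. Some of these values rested on experiment 3 or on the brightest probe set. Without experiment 3 the difference was 0.15 for LOXL2 (0.36 with it), 0.17 for PLOD1 (0.27 with it) and -0.21 for HILPDA (-0.32 with it). Averaged over probe sets, it was 0.11 for LOXL2 and 0.13 for BHLHE41. The median difference over the 48 genes was -0.04, and 28 (58.3%) had a lower mean, against 46.8% of all genes. In all 3 experiments 11 (22.9%) were lower, against 14.4% of all genes, and 5 (10.4%) were higher, against 18.3%. These shares were not tested.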

How the data were processed

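The deposited values are expression per probe set, made by the authors with RMA and Partek per the submitters' processing notes. No version, setting or log base is given in the sources used, and the deposited values were read as log2 from their range. RMA makes the arrays' distributions alike, so a shift shared by most genes cannot be seen. Of 54675 probe sets, 62 controls were left out, among them those for GAPDH, and 41091 carried 1 gene symbol. The 19775 genes were fitted by lmFit and eBayes of limma 3.58.1 (R 4.3.3), two-sided, with Benjamini-Hochberg adjustment over all of them and with experiment as a block, which leaves 2 residual degrees of freedom. The series text speaks of pairs from independent experiments, and the replicate numbers in the sample titles were taken to mark them. As a check, departures of arrays from their group mean, compared across genes, had correlations of 0.855, 0.585 and 0.771 for same-numbered arrays and of -0.753 to 0.257 for others.

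Full statistics are given for members with an unadjusted p under 0.05. From each further pathway list, up to 6 genes past that p with the same sign in all 3 experiments are named. Alternatives were no block, each experiment left out, trend and robust variances, quantile normalization, median centring, averaged probe sets, every probe set, genes at or above the median level and an adjusted p of 0.1. The members and lists were chosen with earlier results of these data known. Figures were drawn with matplotlib 3.10.9.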

Additional observations from a re-analysis of the deposited data

How the results depend on the processing

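The blocked limma fit called 0 genes and 0 members, with 2169 genes and 4 members at an unadjusted p under 0.05. Leaving out each experiment in turn gave 0 to 174 genes and 0 to 3 members, the highest without experiment 1. Trend and robust variances gave 56 genes and 2 members, and an adjusted p under 0.1 gave 4 genes and 0 members. Without the replicate block, 0 genes and 0 members passed, and 1 member reached an unadjusted p under 0.05, with 119 genes lower and 194 higher at that p. The other alternatives were run with the block only. The number of members lower in every experiment was 7, and it was 3 with averaged probe sets. With 1 experiment left out it was between 9 and 11 (11 without experiment 1). This count cannot fall when fewer experiments have to match, so the rise carries no information. The median difference of members stayed within -0.03 and 0.04 under all alternatives. PFKFB3, ZNF395, PDK1 and HK2 kept their sign under these alternatives, but not in each single probe set: both dimmer probe sets of HK2 (-0.05 and -0.20) and the dimmest of PDK1 (0.09) had the opposite sign. Of the other 34 members, 9 changed sign without experiment 1 and 7 with averaged probe sets, PDK3 and SLC2A1 among the latter. Precision rests on 3 arrays a group, and it also depends on which: without experiment 1 the SE fell from 0.170 to 0.134 for PFKFB3 and from 0.167 to 0.136 for ZNF395.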
